A study of Homo sapiens with 4 samples.

Results

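Alternative transcript starts were examined by RNAseq of 2 shControl and 2 shNeuroD1 libraries of IMR-32, a MYCN-amplified line grown from a human neuroblastoma. The unit of analysis was a gene with at least 2 listed transcript starts. A start is an event listed as a transcript start and is read here as a first exon, though the tool that listed it was not given. The share of a start is its FPKM as a percent of the summed FPKM of all starts listed for its gene. FPKM stands for fragments scaled for transcript length and library size. Genes were selected on measured values, namely a summed start FPKM averaging at least 5 over the 4 libraries, with unlisted starts set to 0. This left 5142 genes of the 13215 with a listed start, and 21505 starts of 36897. Just below the limit were SMCR8 and TMEM129, and just above it IGHMBP2 and the gene ENSG00000270157, at means of 4.9997, 4.9998, 5.0007 and 5.0019 FPKM. The selection used the mean over both groups and not their difference.

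All 4 libraries came from cells with a hairpin induced by doxycycline at 1 µg/mL for 48 h, so the shControl cells received the drug too. The shControl cells carried a control hairpin and are listed under the genotype WT, while the shNeuroD1 cells carried a hairpin against NeuroD1 and are listed as NeuroD1 knockdown. The study used more than 1 NeuroD1 hairpin under numbered names, and the labels do not state whether the numbers on the shNeuroD1 libraries mark hairpins or repeats, which cannot be told apart here. Nor do they state that a group's libraries came from different cultures, and p-values measure only the spread between these libraries. In bulk RNA, fewer cells of a type and less RNA per cell cannot be told apart. Total counts were 14665210 to 16482463 per library, but the number of reads behind the FPKM of a start is unknown. NEUROD1, the targeted gene, was counted 6174 and 6582 times in the shControl libraries, against 969 and 886 times after knockdown (log2 fold change -2.77, SE 0.0504, edgeR adjusted p 8.6e-29). All 10 noradrenergic neuroblastoma markers examined were detected. Their summed CPM (counts scaled by library size and TMM factor, as for all CPM here) was 4073 to 4170 in shControl and 3805 to 3836 in shNeuroD1, without overlap, whereas per library total alone the sums overlapped, at 3924 to 3990 and 3948 to 3980. No blood or immune marker of 5 reached 10 counts in any library, and CD3E and HBB were at 0. Of 8 mesenchymal markers, 6 were detected and PRRX1 was at 0, at a summed 90.3 to 103.9 CPM in shControl and 74.7 to 74.8 in shNeuroD1. Of 5 Schwann cell markers, 4 were detected, at a summed 5.42 to 5.43 CPM in shControl and 8.74 to 10.1 in shNeuroD1. Their part in the differences of share given below was not tested.

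Many human genes carry more than 1 promoter, the DNA from which RNA polymerase II begins a transcript. Starting elsewhere replaces the first exon, which can alter the untranslated leader that governs translation or, where the first exon holds the start codon, the amino end of the protein. Neuronal genes such as the ankyrins and axon guidance receptors are textbook cases, with starts far apart in 1 gene. NEUROD1 is a basic helix-loop-helix transcription factor that binds E-box sequences with the letters CANNTG.

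Short stretches from annotated start codons show what an exchange of first exon can and cannot alter. They were read from GENCODE release 29 transcripts on GRCh38 for first exons that match the listed start base for base, and run 30 bases along the spliced mRNA from the start codon, which is in capitals. In NSF, which codes for a fusion factor of vesicle release, in USP3, a deubiquitinase, and in VEZF1, a zinc finger transcription factor, the start whose share was higher in shNeuroD1 and the one whose share was lower lead to different annotated start codons.
NSF, higher start, first coding base 46590776 of chromosome 17: ATGgcgggccggagcatgcaagcggcaaga
NSF, lower start, first coding base 46624247 of chromosome 17: ATGcaagcggcaagatgtcctacagatgaa
USP3, higher start, first coding base 63504740 of chromosome 15: ATGgagtgtccacacctgagctccagcgtc
USP3, lower start, first coding base 63532607 of chromosome 15: ATGatgcaattggtatattgtgtatttttc
VEZF1, higher start, first coding base 57985259 of chromosome 17: ATGgcagcccatgaagcttcccatcaccaa
VEZF1, lower start, first coding base 57982958 of chromosome 17: ATGccagtgacccagtctgtcaagaaaccc
In NSF the start codon of the lower start also lies, in frame, in the transcript of the higher start, 15 bases downstream of that transcript's own start codon. In VEZF1 it lies 441 bases downstream, again in frame. No such position was found in USP3.

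In HDLBP, which codes for the RNA-binding protein vigilin, both starts lead to the same start codon in a later exon, so as annotated the exchanged exons belong to the untranslated leader.
HDLBP, both starts, first coding base 241266869 of chromosome 2: ATGagttccgttgcagttttgacccaagag
Paired starts of LRRC8D, TCF3 and CTCF, described below, shared a start codon too. Over all member genes, the start with the largest gain of share and the one with the largest loss both matched a complete coding transcript in 592 genes, and 325 of these pairs (54.9%) shared a start codon.

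A typical gene drew most of its FPKM from 1 start. The genes held a median of 3 starts, with 2 starts in 1416 genes, 3 to 5 in 2621 and 6 or more in 1105. The most, 36, were listed for SNHG14, a long non-coding host gene of small nucleolar RNAs. The leading start, the one with the highest mean share, held a median of 87.2% (quartiles 65.5% and 97.1%), and in 2319 genes (45.1%) it held at least 90%. It was the most upstream start in 68.6% of genes. Of all member starts, 6484 (30.2%) had a mean share under 1%.

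Listed starts mostly followed the annotation but were not all separate promoters. Of the 21505 starts, 92.3% began within 100 bases of an annotated start of GENCODE 29, 74.9% matched an annotated first exon exactly, and 85.4% lay inside the gene they were assigned to or within 100 bases of it. An exact match was found for 62.6% of leading starts and 78.8% of the other starts. In 181 genes all listed starts shared a 5′ end and differed only in the donor that ends the exon, and 398 genes had 1 position left once 5′ ends within 100 bases were merged. The leading start lay within 100 bases of the RefSeq start in 2583 of the 4103 member genes with a RefSeq window (63.0%) and over 1000 bases from it in 821, downstream in 560 and upstream in 261. Starts were listed on both strands for 94 genes.

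The letters of E-boxes and the TATA box were counted in the RefSeq windows of GRCh38.p14, from 250 bases before to 50 after each gene's start, on both strands. CANNTG was found in 58.7% of the 4103 windows of member genes and in 68.9% of all 27305 windows. CAGATG was in 9.02% against 14.8%, CAGCTG in 15.4% against 17.7% (both are forms of CANNTG), and TATAAA in 4.80% against 11.95%. The windows of member genes were richer in C and G, with a median of 65.3% against 58.3%. These are counts of letters in 1 window per gene and say nothing of bound factors. They describe the annotated start and not the other listed starts.

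The first question was whether NeuroD1 knockdown altered which start a gene used beyond the spread between replicates. No start passed the planned test, a limma fit of the log2 ratio of a start to the other starts of its gene (pseudocount 1 FPKM), at an adjusted p under 0.05 and a change of at least 10 percentage points of share. The background was therefore 0.0% of 21505 starts, with a lowest limma adjusted p of 0.0851, while 2569 starts (11.9%) had an unadjusted p under 0.05. The libraries of the groups did not overlap in share for 6876 starts (32.0%), and 2065 of these differed by at least 10 points, in 1260 genes.

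Libraries of the same group differed nearly as much as libraries of different groups. The leading start's share differed by a median of 4.56 points between the 2 shControl libraries and 5.02 points between the 2 shNeuroD1 libraries. The 4 pairs of libraries from different groups had medians of 4.94 to 5.52 points. Another start led in 665 genes (13.0%) between the shControl libraries and in 660 (12.9%) between the shNeuroD1 libraries. Across groups it was 678 to 724 genes (13.2% to 14.1%). The signed change of the leading share had a median of -0.09 points.

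**Figure D1:**
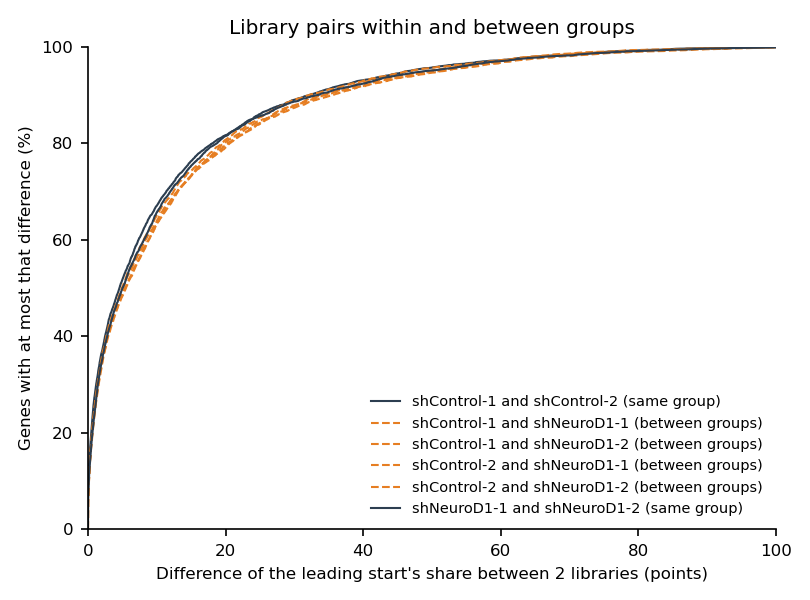
Cumulative percent of 5132 genes (vertical axis) by the difference of the leading start's share between 2 libraries, in percentage points (horizontal axis), with solid lines for pairs of the same group and dashed lines for pairs of different groups. The lines run close together, with medians of 4.56 and 5.02 points within groups and 4.94 to 5.52 points between them.

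The spread narrowed with level and widened with the number of starts. In genes with a summed 5 to 10 FPKM the median difference was 6.24 points between the shControl libraries and 6.69 between the shNeuroD1 libraries. In genes with 50 FPKM or more it was 1.94 and 2.38 points. The group means differed by medians of 5.96 and 2.65 points in these bands, and means of 2 libraries vary less than single libraries. Genes with 2 starts differed by a median of 0.914 points between the shControl libraries, and genes with 6 or more by 9.83 points.

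Most genes kept their leading start. It was the same in all 4 libraries in 3952 of 5132 genes (77.0%), and it differed by mean share between the groups in 497. In 115 genes 1 start led in both shControl libraries and a different one in both shNeuroD1 libraries, 2.24% of the 5132. After 5′ ends within 100 bases were merged, 94 of 4735 genes (1.99%) did so. Of the 115 genes, 112 were tested for the whole gene in edgeR and 11 were called (9.82%), against 6.01% of the 4943 member genes tested and 13.9% of all 17537 genes tested.

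**Figure D2:**
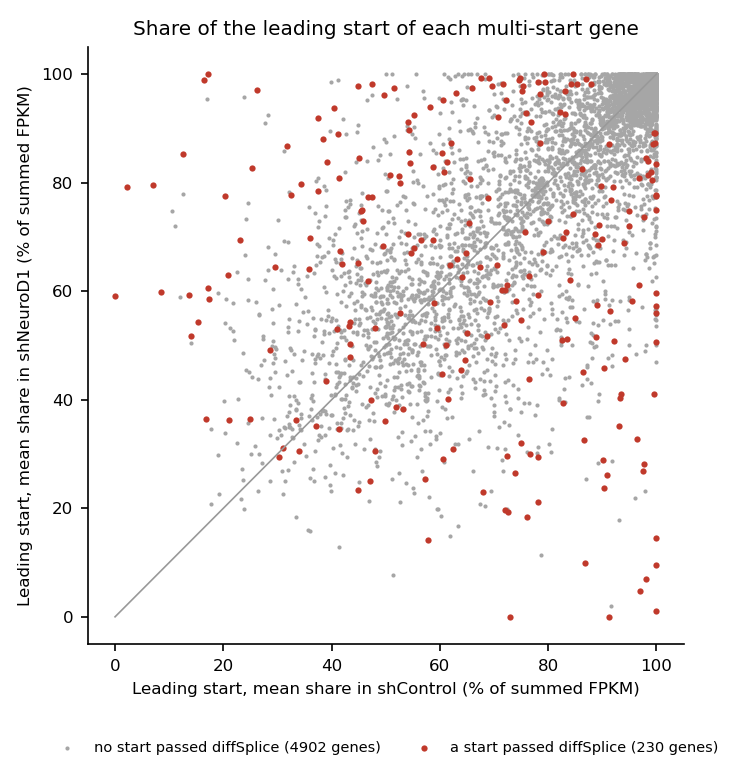
Mean share of the leading start of each gene in shControl (horizontal axis) and shNeuroD1 (vertical axis), in percent of the gene's summed FPKM, for 5132 genes. Points cluster at high shares around the line of equality, and the 230 genes with a start that passed diffSplice, a test described next, are in red.

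Among the alternatives set for this comparison, limma's diffSplice was alone in calling starts. It tests each start's log2(FPKM + 1) against the other starts of its gene and borrows the spread of the whole gene. The test counts the starts of a gene as independent, which they are not, and still rests on 2 libraries per group. It passed 316 starts in 230 genes, 158 with a higher and 158 with a lower share in shNeuroD1, or 1.47% of starts and 4.47% of genes. Of these starts 247 also had an unadjusted p under 0.05 in the planned test, and 312 did not overlap between the groups, against 32.0% of all starts. In 65 of them every library of 1 group was listed at 0. With the replicate number as a block it passed 178 starts in 138 genes, and over starts listed in all 4 libraries 177 in 130. Leaving out any 1 library, controls included, gave 511 to 711 starts. The genes below were named by these diffSplice results and are given as values, since none passed the planned test. For the largest changes the naming rule also required groups without overlap, so the lack of overlap adds no support there.

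Distances between the starts with the largest gain and the largest loss were set beside those of all member genes. Of the 316 starts that passed, 272 lay inside the gene they were assigned to or within 100 bases of it. Starts outside the gene were kept, so a pair need not be an exchange within a gene. In the 230 genes the start with the largest gain and the one with the largest loss were over 10 kb apart in 115 of 230, against 41.2% of all 5090 member genes with such a pair on 1 strand. They shared a 5′ end or lay within 100 bases in 30 (13.0%), against 17.2%. The start with the larger gain was the upstream one in 118 of 215 pairs with separate 5′ ends (54.9%), against 49.2% of 4622. Of the 316 starts, 39.2% matched the first exon of a protein-coding transcript and 14.9% that of a retained-intron transcript, against 34.9% and 22.7% of all member starts.

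VEZF1 exchanged starts 2911 bases apart. Its upstream start at chr17:57988079-57988259 had 36.8 and 36.8 FPKM in shControl and 5.33 and 5.39 in shNeuroD1. Its downstream start at chr17:57985254-57985348 had 0.189 and 0.182 FPKM in shControl and 7.42 and 7.94 in shNeuroD1. The downstream share was 0.502 ± 0.0133% (SD, n = 2) in shControl and 58.9 ± 0.946% (SD, n = 2) in shNeuroD1, with no overlap (limma adjusted p 0.0935, diffSplice adjusted p 1.1e-04). The leading start thus differed between the groups. The annotated start codons shown above come from 1 matching coding transcript for each VEZF1 start. The FPKM of a start does not show which coding sequence follows it. The whole gene was also lower in counts, at 298 and 298 CPM in shControl and 151 and 150 in shNeuroD1 (log2 fold change -0.98, SE 0.0439, edgeR adjusted p 1.0e-18), just short of the fold needed for a call.

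HDLBP exchanged 2 leader exons 380 bases apart. The start at chr2:241315102-241315292 had 39.0 and 35.3 FPKM in shControl and 0.604 and 0.00918 in shNeuroD1. The upstream start at chr2:241315570-241315672 had 0.399 and 1.87 FPKM in shControl and 22.5 and 27.9 in shNeuroD1. Its share was 2.22 ± 1.95% (SD, n = 2) and 79.3 ± 3.04% (SD, n = 2), and neither start's libraries overlapped (limma adjusted p 0.0935 for the upstream start, diffSplice adjusted p 1.6e-05). The start codon shown above for HDLBP serves both.

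SLIT3, a secreted axon guidance ligand, had its 2 starts 455844 bases apart. The downstream start at chr5:168844976-168845295 had 11.6 and 11.9 FPKM in shControl and 2.97 and 4.91 in shNeuroD1. The upstream start at chr5:169300513-169301139 had 1.35 and 1.20 FPKM in shControl and 10.8 and 8.65 in shNeuroD1. The upstream share was 9.78 ± 0.882% (SD, n = 2) against 71.1 ± 10.4% (SD, n = 2), without overlap (limma adjusted p 0.149, diffSplice adjusted p 0.0059). No difference in SLIT3 counts was detected (log2 fold change 0.02, SE 0.0453, edgeR adjusted p 0.792).

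NCOR1 and HDAC5 code for parts of nuclear corepressor complexes, and LRRC8D for a subunit of volume-regulated anion channels. The NCOR1 start at chr17:16194462-16194613 held 37.9% and 69.0% of the gene in shControl and was not listed in shNeuroD1, where the start 20921 bases upstream held 78.7% and 97.5%. The shControl libraries of NCOR1 thus lay far apart. In HDAC5 the share moved between first exons whose 5′ ends were 64 bases apart, from chr17:44123254-44123702 (74.8% and 71.9% in shControl, 3.84% and 0.458% in shNeuroD1) to chr17:44123504-44123638 (24.7% and 27.7%, then 94.9% and 99.1%). After merging, these count as 1 start. In LRRC8D the start at chr1:89821921-89822185 held 72.9% and 54.7% in shControl and was not listed in shNeuroD1, while the start 907 bases upstream held 11.9% and 38.7%, then 79.3% and 86.0%. The diffSplice adjusted p was 0.0079, 2.6e-06 and 0.0014 for the start with the loss in NCOR1, HDAC5 and LRRC8D. For the start with the gain the diffSplice adjusted p was 0.117, 1.3e-04 and 0.0795, so the gains in NCOR1 and LRRC8D did not pass.

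NCBP2, the small subunit of the nuclear cap-binding complex, and DDX39A, an RNA helicase of mRNA export, differed in starts tied to other transcript types. In NCBP2 a first exon that matches a transcript annotated as subject to nonsense-mediated decay, chr3:196942370-196942594, held 9.30% and 3.15% in shControl, then 63.6% and 64.3% after knockdown. The coding first exon 34 bases downstream held 89.5% and 96.8%, then 35.3% and 35.0%. After merging, these NCBP2 exons count as 1 start too. In DDX39A the upstream first exon chr19:14419270-14419341, which matches a retained-intron transcript, had 38.8 and 34.0 FPKM in shControl and 6.88 and 7.47 in shNeuroD1, and a start 6121 bases downstream had 0.401 and 0 FPKM, then 17.4 and 13.7. In both genes the groups did not overlap for either start.

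Other genes with large changes, RPL41, CKMT1B and NPIPA1, have near-identical copies elsewhere in the genome, so their reads are uncertain. RPL41 is a ribosomal protein gene with processed pseudogenes, and CKMT1B (mitochondrial creatine kinase) and NPIPA1 have close paralogs. Starts of CKMT1B, CCSAP and PLCXD1 were among those at 0.0851, the lowest limma adjusted p of the planned test. RPL41 exchanged exons 43 bases apart, which count as 1 start after merging. The start gaining share in CKMT1B and in NPIPA1 lay outside the annotated gene.

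**Figure D3:**
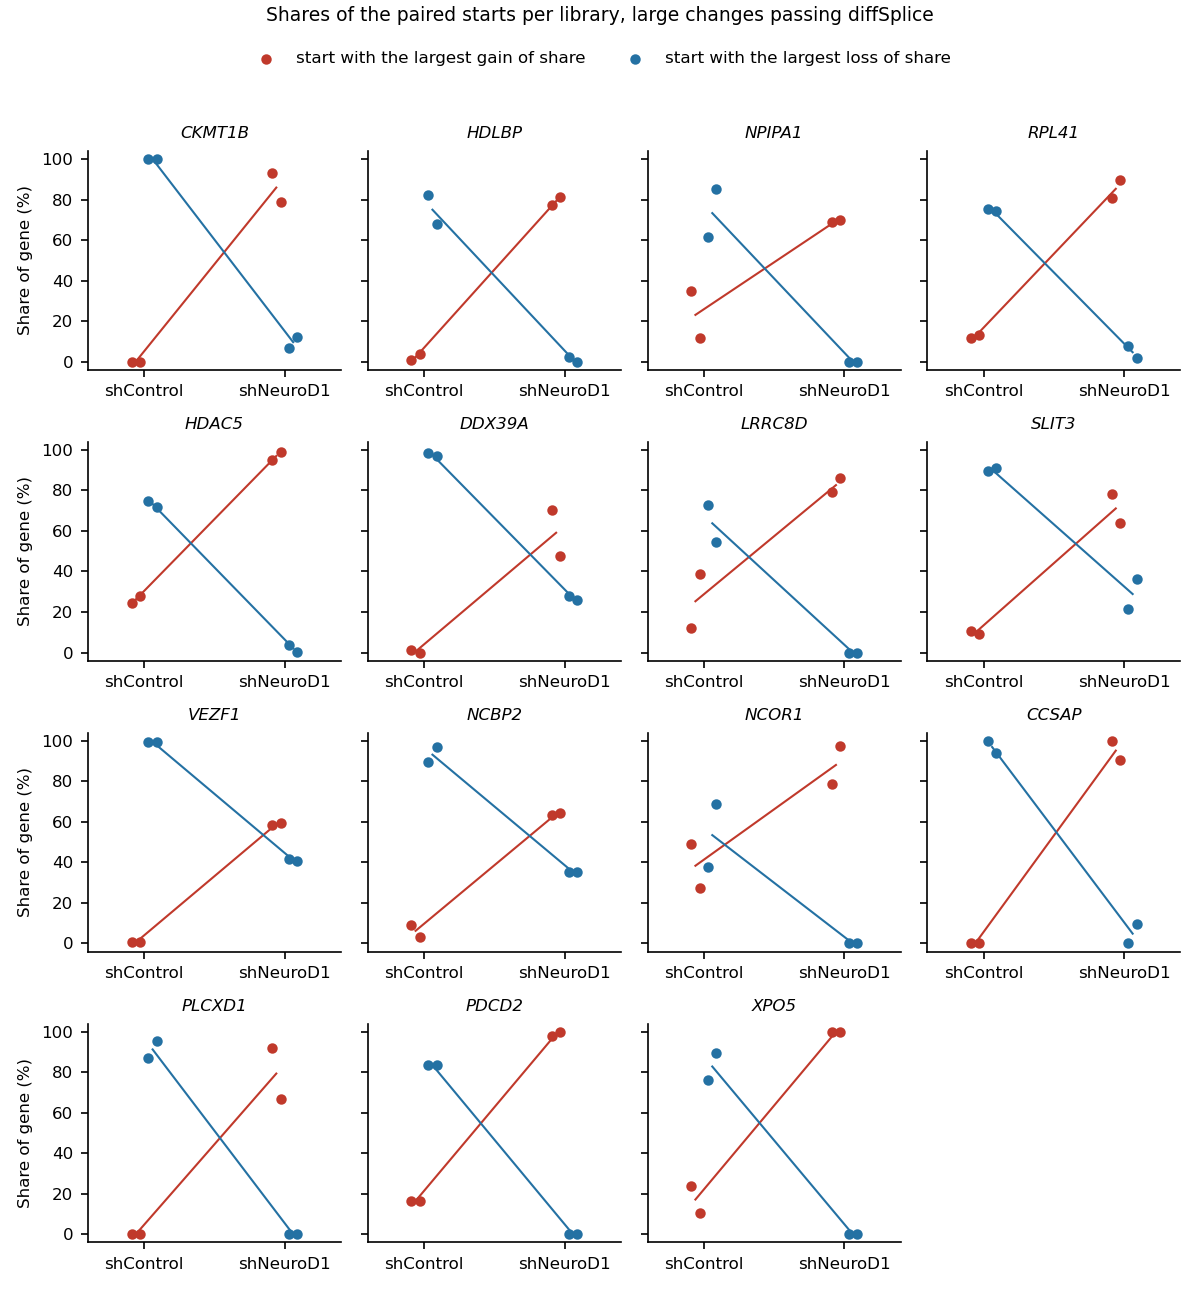
Share of the gene (percent, vertical axis) in each of the 2 shControl and 2 shNeuroD1 libraries for the start with the largest gain (red) and the one with the largest loss (blue), in 15 genes with large changes that passed diffSplice. Points are libraries and lines join group means. The groups did not overlap for any of the plotted starts, but lack of overlap was part of the rule that named most of these genes.

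Whole-gene change was compared with the change of start. Of 218 genes with a start that passed diffSplice and with an edgeR test, 27 were called (12.4%, against 6.01% of the 4943 member genes tested and 13.9% of all genes tested), and 149 (68.3%) had a log2 fold change under 0.5 in size, against 78.8% of the member genes tested. Among those with a new leading start, large changes of share were found in HDLBP, given above, and in CCSAP, PLCXD1, PDCD2 and XPO5. In CCSAP, a centriole and spindle protein, the start at chr1:229342099-229342517 had 9.27 and 8.99 FPKM in shControl and 4.2e-04 and 0.821 in shNeuroD1, and the start 530 bases upstream was not listed in shControl and had 8.19 and 7.68 FPKM in shNeuroD1. For CCSAP counts the log2 fold change was -0.16 (SE 0.0604, adjusted p 0.0219 in edgeR). In XPO5, the export receptor of pre-miRNAs, a downstream start held 76.2% and 89.4% in shControl and was not listed in shNeuroD1, where the start 13705 bases upstream was alone. Summed XPO5 starts averaged under 10 FPKM in both groups, as did those of CCSAP.
PLCXD1 lies in the pseudoautosomal region, where reads are shared with an identical copy. Its start at chrX:276322-276394 had 8.91 and 9.18 FPKM in shControl and was not listed in shNeuroD1, and the start 5059 bases downstream was not listed in shControl and had 8.48 and 8.56 FPKM in shNeuroD1. PDCD2 exchanged first exons 55 bases apart, which count as 1 start after merging. Its summed starts averaged 17.7 FPKM in shControl and 4.69 in shNeuroD1, while its counts had a log2 fold change of -0.47 (SE 0.0558, adjusted p 1.4e-08 in edgeR). The summed starts of a gene and its counts therefore need not move by the same factor.

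**Figure D4:**
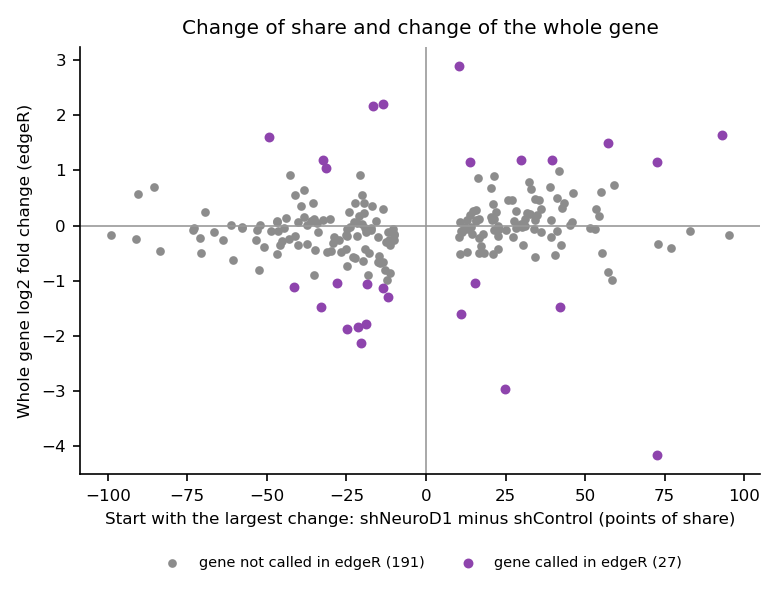
Whole-gene log2 fold change in edgeR (vertical axis) against the change of share of the start with the largest change, shNeuroD1 minus shControl in percentage points (horizontal axis), for the 218 genes with a start that passed diffSplice and an edgeR test. In 149 genes the log2 fold change was under 0.5 in size, and 27 genes passed the edgeR call (purple).

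Genes known for alternative promoters were examined as a list. Of 89 listed genes 38 were members, and 8 had a start that passed diffSplice (5 starts with a higher share, 3 with a lower), against 4.47% of all member genes. The size of the change of the leading share had a median of 10.1 points, against 4.71 points over all members. The difference between libraries of the same group was not computed for the list, so nothing is drawn from this. Among member genes with 6 or more starts, it had a median of 9.83 points in shControl and 9.66 in shNeuroD1, and group means differed by 9.02. ANK2 (ankyrin-B, a membrane adaptor) had an upstream start with 2.67 and 3.83 FPKM in shControl and 3.60 and 1.69 in shNeuroD1. A start 231490 bases downstream, at chr4:113049522-113049812, had 0.239 and 2.26 FPKM in shControl and 9.34 and 12.5 in shNeuroD1. The downstream share was 20.3 ± 17.8% (SD, n = 2) and 77.5 ± 12.1% (SD, n = 2) (limma adjusted p 0.263, diffSplice adjusted p 4.7e-04). Summed ANK2 starts averaged 4.98 FPKM in shControl, so ANK2 met the limit of 5 FPKM only through its higher level in shNeuroD1. Its shares in shControl are therefore ratios of low FPKM values, and the diffSplice result rests on them too. ANK2 rose from 118 and 139 to 353 and 375 CPM (log2 fold change 1.502, SE 0.0541, edgeR adjusted p 3.5e-21).
TRIO, a guanine nucleotide exchange factor, had an internal coding start at chr5:14488448-14489069 with 2.56 and 6.98 FPKM in shControl that was not listed in shNeuroD1. The start with the largest gain in TRIO overlapped between the groups and lay outside the annotated gene.

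Of 75 neuronal cytoskeleton and axon genes, 48 were members and 9 had a start that passed diffSplice, 5 starts higher and 5 lower, against 4.47% of all member genes. The lists were chosen with earlier results of these data known. Whether their genes have more starts or a wider spread between replicates than all members was not computed. Nothing is drawn from this count, or from the counts of genes with a passing start in the other lists. The gene lists overlap, and some of these genes, ANK2 among them, were also counted in the list before. ROBO1, a receptor for SLIT ligands, had an internal first exon annotated in a retained-intron transcript, chr3:78670096-78670540, with 12.7 and 9.08 FPKM in shControl and 0.0964 and 0.162 in shNeuroD1. Its upstream start, 348957 bases away, had 9.29 and 4.41 FPKM in shControl and 6.89 and 5.89 in shNeuroD1, so the listed level of the upstream start stayed within the shControl range while its share was 37.5 ± 6.77% and 92.0 ± 7.52% (SD, n = 2 each). For ROBO1 counts the log2 fold change was -0.62, short of a call (SE 0.0546, adjusted p 2.0e-11 in edgeR). MAP1A, a microtubule-associated protein, had an upstream coding start at chr15:43510958-43511226 with 0.512 and 0.987 FPKM in shControl and 8.31 and 6.19 in shNeuroD1. The start 6650 bases downstream had 11.5 and 12.7 FPKM, then 5.25 and 8.003, and no difference in MAP1A counts was detected (log2 fold change 0.08, SE 0.0508, edgeR adjusted p 0.21).

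Of 64 genes of neuronal release and signalling, 28 were members and 2, NSF among them, had a start that passed diffSplice, near the 4.47% of all member genes. The upstream NSF start at chr17:46590669-46590787 had 12.7 and 11.1 FPKM in shControl and 26.9 and 15.2 in shNeuroD1. The downstream start at chr17:46624036-46624329, with the shorter coding sequence shown above, had 8.98 and 13.8 FPKM in shControl and 0.457 and 0.536 in shNeuroD1. It held 48.4 ± 9.95% (SD, n = 2) and 2.54 ± 1.23% (SD, n = 2) of the gene (limma adjusted p 0.163, diffSplice adjusted p 0.0020). In shControl the upstream NSF start led in replicate 1 (58.6%) and the downstream start in replicate 2 (55.5%), and in shNeuroD1 the upstream start led in both.

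Of 52 sympathoadrenal and neurogenic transcription factors, 21 were members, and 3 had a start with a lower share that passed diffSplice, against 4.47% of all member genes with a start in either direction. SATB1, a chromatin organizer, had a leading start at 20.4, 13.1, 6.48 and 5.55 FPKM in the 2 shControl and then the 2 shNeuroD1 libraries, and a start upstream of it, chr3:18438565-18438773, at 4.90, 14.8, 0.0704 and 0.114. SATB1 counts fell (log2 fold change -1.79, SE 0.0473, edgeR adjusted p 1.3e-24). TCF3, the E-protein partner of basic helix-loop-helix factors such as NEUROD1, drew 88.6 ± 0.875% and 70.5 ± 8.03% (SD, n = 2 each) from the start at chr19:1652300-1652329, which had 28.7 and 20.7 FPKM in shControl, then 7.09 and 4.18. The groups did not overlap for this TCF3 start.

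Of 53 genes of chromatin and DNA methylation, 34 were members and 1, the histone demethylase gene KDM2B, had a start that passed diffSplice, against 4.47% of all member genes. That start lay outside the annotated gene and had 0 and 1.01 FPKM in shControl and 7.26 and 5.13 in shNeuroD1. Of 59 genes of RNA binding and splicing, 38 were members, none had a start that passed diffSplice, and 1, CELF3, named after its values were seen, had a different leading start in each group. Of 52 integrated stress response genes, 23 were members and 2 had a start with a lower share that passed diffSplice, against the same 4.47%. In PHGDH, the entry enzyme of serine synthesis, the internal start chr1:119719627-119721321, annotated in a retained-intron transcript, had 28.4 and 12.01 FPKM in shControl and 0.00417 and 0.00142 in shNeuroD1. The coding start 7743 bases upstream held 63.2% and 86.6%, then 98.9% and 99.7%. PHGDH counts fell (log2 fold change -1.88, SE 0.0447, edgeR adjusted p 1.1e-25). In SLC1A4, an amino acid transporter, the leading start held 98.99% and 99.5%, then 84.7% and 76.5%, and counts fell (log2 fold change -1.07, SE 0.0666, edgeR adjusted p 5.0e-15), a call that was lost without shControl replicate 2 (-0.995).

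Of 97 cell cycle genes, 68 were members. In edgeR 29 of the 68 fell, none rose and 39 were not called, against 190 lower and 107 higher of the 4943 member genes tested (6.01% called). A start passed diffSplice in 3 of the 68 genes, close to the share of all member genes (4.47%). These were CHAF1B (chromatin assembly), UBR7 and CTCF (the insulator protein). The CHAF1B start at chr21:36385392-36385451 held 52.2% and 58.2% in shControl and 38.2% and 44.9% in shNeuroD1. In UBR7 the start at chr14:93207241-93207441 held 64.4% and 65.8%, then 53.1% and 51.3%. For both CHAF1B and UBR7 the start with the largest gain lay outside the annotated gene, so the lower share need not be a switch within the gene. Counts of both were lower (log2 fold change -1.13 and -0.80, edgeR adjusted p 6.4e-14 and 3.6e-13). In CTCF an internal first exon, chr16:67610590-67611613, held 1.62% and 1.18%, then 7.60% and 16.7%, and its annotated start codon is that of the leading start. The median change of the leading share over the 68 genes was -1.32 points, against -0.09 points over all members.

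**Figure D5:**
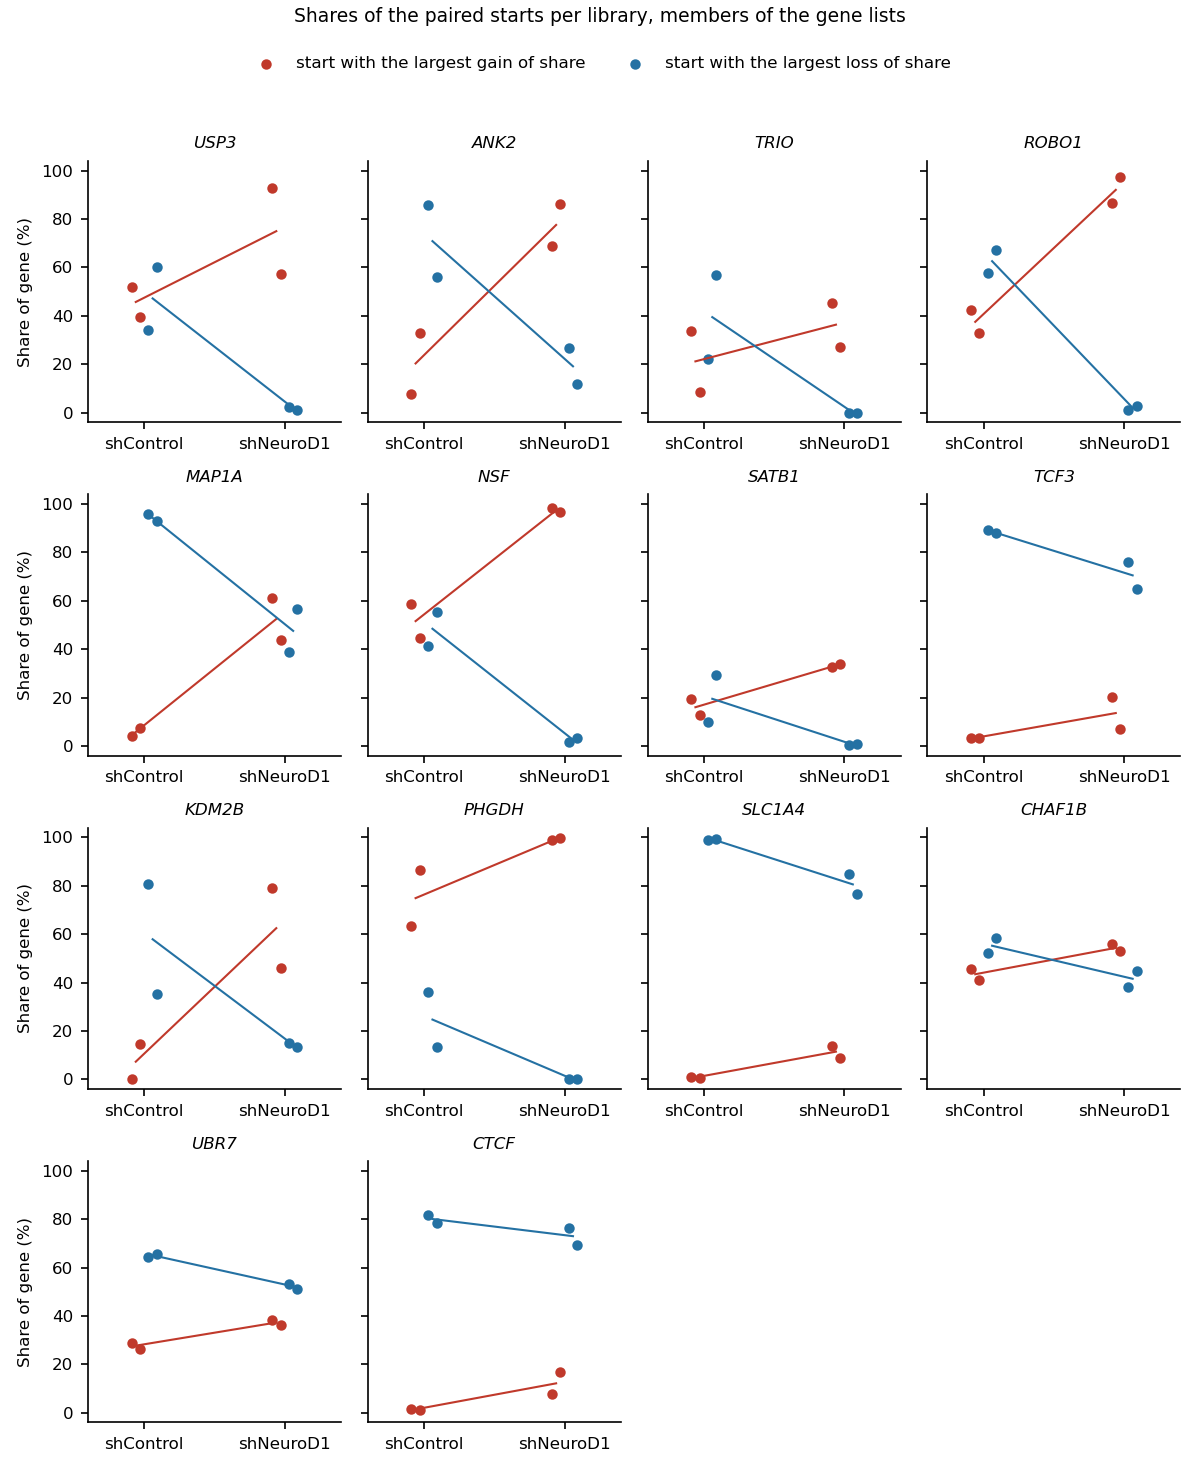
Share of the gene (percent, vertical axis) in each of the 2 shControl and 2 shNeuroD1 libraries for the start with the largest gain (red) and the one with the largest loss (blue), in 14 of the list members named here. Points are libraries and lines join group means. Replicates lie far apart in KDM2B, ANK2 and TRIO and close together in UBR7.

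Of the deubiquitinases, 27 USP genes were members and 1, USP3, had a start that passed diffSplice, near the 4.47% of all member genes. Its upstream coding start at chr15:63504511-63504830 had 9.19 and 7.04 FPKM in shControl and 4.40 and 3.91 in shNeuroD1. Its internal coding start, 27995 bases downstream, had 6.05 and 10.7 FPKM in shControl and 0.112 and 0.0838 in shNeuroD1. The internal share was 47.1 ± 18.4% (SD, n = 2) and 1.79 ± 0.801% (SD, n = 2) (limma adjusted p 0.311, diffSplice adjusted p 0.0021). The 2 USP3 sequences shown above begin these coding regions. Both starts were lower in FPKM, and the upstream one was higher in share only (diffSplice adjusted p 0.93). Summed USP3 starts averaged 17.8 FPKM in shControl and 5.79 in shNeuroD1. Counts differed less, at 73.3 and 76.7 CPM in shControl and 61.2 and 62.7 in shNeuroD1 (log2 fold change -0.28, SE 0.0586, edgeR adjusted p 1.7e-04).
USP1, a deubiquitinase the study placed downstream of NeuroD1, had the same leading start in both groups. The start at chr1:62437049-62437400 had 52.9 and 56.3 FPKM in shControl and 25.4 and 23.9 in shNeuroD1, and held 99.2% and 100%, then 97.9% and 99.4% of the gene (limma adjusted p 0.329). USP1 counts fell (log2 fold change -1.27, SE 0.0444, edgeR adjusted p 1.8e-21), the only USP member called in edgeR. USP5, a deubiquitinase of unanchored ubiquitin chains, drew 98.7% from 1 start in each group by mean. USP7, a regulator of MDM2 and p53, drew 98.1% and 98.8% from its upstream start in shControl and 95.8% and 96.9% in shNeuroD1. USP36, a nucleolar deubiquitinase, varied widely between replicates, with 19.5% and 89.3% from 1 first exon in shControl and 3.24% and 79.7% in shNeuroD1.

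MYCN, the amplified oncogene, had 2 listed first exons that share a 5′ end and differ in their donor. The shorter, chr2:15940550-15940743, had 402.0 and 366.3 FPKM in shControl and 451.9 and 447.2 in shNeuroD1. The longer, chr2:15940550-15941053, had 105.0 and 108.2 FPKM in shControl and 88.0 and 87.0 in shNeuroD1. The shorter exon's share was 78.2 ± 1.48% (SD, n = 2) and 83.7 ± 0.0131% (SD, n = 2), a difference of 5.47 points without overlap that did not pass (limma unadjusted p 0.105, limma adjusted p 0.518). An antisense gene overlaps MYCN, and the use of strand was not stated.
NEUROD1 had 7 listed starts, but 6 lay outside the annotated gene, and the one inside, chr2:181680430-181680665, was listed only in shControl replicate 2, at 0.156 FPKM. The event values therefore do not follow NEUROD1 itself.

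The remaining genes the study names differed little in start or varied between replicates. CCND1 (cyclin D1), ODC1 (ornithine decarboxylase) and SKP2 (an F-box protein of ubiquitin ligases) drew a mean of at least 96.7% from 1 start in each group. CDK4, the kinase partner of cyclin D1, drew 94.3 ± 0.816% and 93.3 ± 0.530% (SD, n = 2 each) from its upstream start, while that start had 99.5 and 148.4 FPKM without knockdown and 54.4 and 70.8 FPKM with it. MKI67, a proliferation marker, drew 98.6% and 99.6% in shControl and 99.4% and 82.2% in shNeuroD1 from 1 start. MDM2, the ubiquitin ligase of p53, had an internal first exon at chr12:68809211-68809292, with 0.240 and 0.596 FPKM in shControl and 10.97 and 0.606 in shNeuroD1. The 10.97 FPKM came from 1 library, and the share of this exon was 68.8% there and 4.24% in the other shNeuroD1 library (limma adjusted p 0.655).

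Some starts were listed in only 1 group. In both shNeuroD1 libraries and no shControl library 357 starts were listed, at a median of 0.378 FPKM, and 29 of them averaged at least 5 FPKM. The reverse held for 348 starts at a median of 0.312 FPKM, of which 22 averaged at least 5 FPKM. Of these starts 36 and 28 passed diffSplice, against 1.47% of all starts, but they were picked for being at 0 in all libraries of a group, which the test reads too, so nothing is drawn from these counts. An unlisted start is one without an FPKM above 0 in the file, and no detection limit can be given without the reads.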

How the data were processed

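Poly(A) RNAseq of 4 IMR-32 libraries was analysed. Per the labels, the authors used cutadapt 1.9.1, HISAT2 2.0.1, HTSeq 0.6.1 and DESeq2 on hg38. The deposited gene counts are raw reads per gene, for 60612 genes, and 0% of rows name no gene. The deposited FPKM values belong to transcript starts, ends and splicing events of each library, listed where above 0. Their tool was not given in the sources used here.

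Start rows were stripped of duplicates, joined by chromosome, start and end, and set to 0 where unlisted. Log2((start + 1)/(other starts + 1)) was fitted in limma 3.58.1 (R 4.3.3) with a variance trend and Benjamini-Hochberg adjustment over 21505 starts. A call needed an adjusted p under 0.05 and 10 percentage points. Counts were tested in edgeR 4.0.16 (quasi-likelihood F test, TMM, filterByExpr with minimum count 10), with calls where the adjusted p was below 0.05 and the log2 fold change past 1 in size. SE was the log2 fold change over the square root of F. Fits were also run on simulated data, as a check of the code only. Simulated starts varied independently with a set spread, unlike the starts of a gene here, so nothing is drawn from that check. Depth was 14665210 to 16482463 counts. It is unknown per start.

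Members, lists and thresholds were chosen with earlier results of these data known. Named genes are those the study names, the 12 largest changes of share without overlap at 10 FPKM or more in both groups, up to 3 per list, the 6 largest with a new leading start and a log2 fold change under 0.5, and 2 on each side of 5 FPKM. As the planned test called none, the rule was applied to diffSplice, chosen after that result was seen. Some genes that the rule names are not reported here. VEZF1, NSF, USP3 and HDLBP were picked for printing after their values were seen. No genome sequence was used, so motifs around each start were not searched. Alternatives were other pseudocounts, scales, filters, merging, the block, DESeq2 1.42.0 and leaving out each library.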

Additional observations from a re-analysis of the deposited data

How the results depend on the processing

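Under the other alternatives run, the planned comparison called 0 starts in 0 genes, as in the main result, but limma diffSplice called 316 starts in 230 genes. The diffSplice counts themselves, chosen for naming genes after the planned result was seen, moved by over 1.5 times with a mean of at least 10 FPKM (199 starts in 146 genes), without a filter (346 genes), with only starts listed in all 4 libraries (177 in 130), at an adjusted p alone (495 starts), and with the replicate block (178 in 138). Leaving out 1 library raised them to 511 to 711 starts in 357 to 464 genes, highest without shNeuroD1 replicate 2 (711) and then without shControl replicate 2 (614), shNeuroD1 replicate 1 (584) and shControl replicate 1 (511), the lone library being assumed to vary like the other group. The cause was not tested. Deviations from the group means did not correlate between libraries of the same number (0.000228 over 21505 starts), so the numbers were not taken to pair samples. In edgeR the block called 298 member genes, against 297. At a mean of at least 10 FPKM, the leading start differed in 292 genes instead of 497, and 66 instead of 115 had a clean exchange of leader, from fewer genes tested. Of 553 values for named starts under alternatives, 517 stayed on the same side, 29 passed, all under diffSplice, and 7 changed sign. The latter were share changes whose range without 1 library spanned 0, in points, for NEUROD1 (-32.3 to 3.08), USP5 (-0.215 to 0.241, with -0.0305 without shControl replicate 1), USP36 (-51.1 to 25.3, with 21.97 without shControl replicate 2), MKI67 (-16.9 to 0.331) and ODC1 (-0.102 to 0.0310). Log2 fold changes of counts did so for MYCN (-0.0464 to 0.0113), SLIT3 (-0.0226 to 0.0504) and MAP1A (-0.0273 to 0.168). The unknown depth per start limits what can be said of starts at low FPKM.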
